A study of Mus musculus with 6 samples.

Results

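The respiratory chain and ATP synthase genes were taken as all genes of the expression table named Ndufa, Ndufb, Ndufc, Ndufs or Ndufv, Sdha to Sdhd, Uqcr, Cox4 to Cox8 or Atp5, without those marked as pseudogenes by "-ps" in their symbol. This gave 97 of 31950 genes: 47 of complex I with its Ndufaf assembly factors, 4 of complex II, 8 of complex III, 21 of complex IV and 17 of complex V. The rule reads gene names and no expression value.

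RNA was sequenced from 6 mouse livers, 1 library per liver. By the labels all 6 came from C57BL/6 mice at 8 week. The 3 WT livers carried normal β-catenin, and the 3 β-cateninΔ(ex3)/+ livers carried 1 β-catenin (Ctnnb1) allele from which exon 3 had been deleted, which leaves a stabilized, active protein. Which of the study's Cre systems made the livers sequenced here (an albumin-driven Cre, its tamoxifen-induced form or a Cre adenovirus) is not given in the sources used here, nor is the share of hepatocytes that recombined. The paper reports that its mice with the albumin-driven Cre that was not induced died before the age on these labels. For livers, it uses the name β-cateninΔ(ex3)/+ with the tamoxifen-induced form. The values are FPKM, fragments relative to the transcript's length and to all mapped fragments, so they can be compared between genes per length. Ndufa4 and its isoform Ndufa4l2 were counted with complex IV.

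Complexes I to IV pass electrons from NADH and succinate to oxygen and, except for complex II, pump protons across the inner mitochondrial membrane; complex V, the ATP synthase, uses that gradient to make ATP. Most subunits are encoded in the nucleus and imported, while a small core of complexes I, III, IV and V is encoded in mitochondrial DNA (mtDNA). Hepatocytes are rich in mitochondria, and several complex IV subunits exist as a ubiquitous isoform and a second isoform used in heart, skeletal muscle and brown fat.

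The livers carried marks beside their genotype labels. Xist, transcribed from the inactive X chromosome, had 20.3 to 22.2 FPKM in WT and 0 to 0.0146 FPKM in β-cateninΔ(ex3)/+ livers, and the Y-linked gene Eif2s3y had 0 to 0.0169 and 9.20 to 9.94 FPKM. The summed level of 5 genes of the young liver (Afp, H19, Igf2, Dlk1 and Gpc3) was 3810 to 3880 FPKM in WT and 3.98 to 4.39 FPKM in β-cateninΔ(ex3)/+ livers, although all were labelled 8 week. Genotype, sex and the state that these genes mark cannot be told apart in any comparison here, and leaving out a liver does not separate them. The 7 hepatocyte markers summed to between 71700 and 75100 FPKM in WT and between 36300 and 36600 FPKM in β-cateninΔ(ex3)/+ livers, with 2 higher (Hnf4a and Cps1) and 4 lower, and 6 of 6 macrophage markers were higher (165 to 170 against 470 to 477 FPKM summed). All 5 proliferation markers were higher, all 5 endothelial and all 5 stellate cell markers were lower, and so were 7 of 8 erythroid markers tested. Of 3 cholangiocyte markers tested 0 were higher and 1 was lower, and of 3 lymphocyte markers 1 was higher and 2 were lower. By the same test, described below, 37.4% of all genes tested were higher and 19.6% lower. Top2a and Mki67 (proliferation), Clec4g (endothelial) and Nkg7 (lymphocyte) lost their calls in some of the alternative fits. The part of these markers in the results was not tested. In whole liver, fewer cells of a type and less RNA per cell cannot be told apart.

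Of the 97 genes, 92 passed a mean of 0.5 FPKM over the 6 livers and were tested with limma on log2(FPKM + 1), with Benjamini-Hochberg adjustment over all 13243 genes that passed. At an adjusted p under 0.05, 20 were higher and 29 were lower in β-cateninΔ(ex3)/+ livers and 43 did not pass; in either direction 49 members and 57% of all genes tested passed. In percent, 21.7% of the members tested were higher, against 37.4% of all genes tested, and 31.5% were lower, against 19.6% of all genes. Their median log2 fold change was -0.053, against 0.14 over all genes. Most changes were small: with an absolute fold change of at least 2 as well, 3 members were higher (8.17% of all genes), of which Cox8b passed the filter on low values through the mutant livers alone, and 1 was lower (4.52% of all genes). In 22 members every β-cateninΔ(ex3)/+ liver was above every WT liver (43% of all genes), and in 37 every β-cateninΔ(ex3)/+ liver was below (23% of all genes). For genes with low FPKM, the added 1 makes these fold changes smaller than the change in FPKM.

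How the libraries were scaled set the split between higher and lower. With median-ratio scaling 9 members were higher and 48 lower, beside 27.1% and 27% of all genes, and with quantile normalization 5 were higher and 54 lower, beside 25.1% and 29.2%. These scalings moved the median of all genes by -0.136 and -0.164. The members' median minus that of all genes was -0.197 for the FPKM as deposited, -0.248 for median-ratio scaling, -0.282 for quantile normalization and -0.072 with no filter on low values. Directions below are for FPKM as deposited. Of the 29 lower members, 24 kept their call in all 14 alternatives. Of the 20 higher ones 5 did, namely Cox7a1, Ndufs6b, Ndufaf6, Atp5k and Cox8b. The call of Cox8b is no support, since it was listed at 0 in WT and passed the filter through the mutant livers alone.

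**Figure D1:**
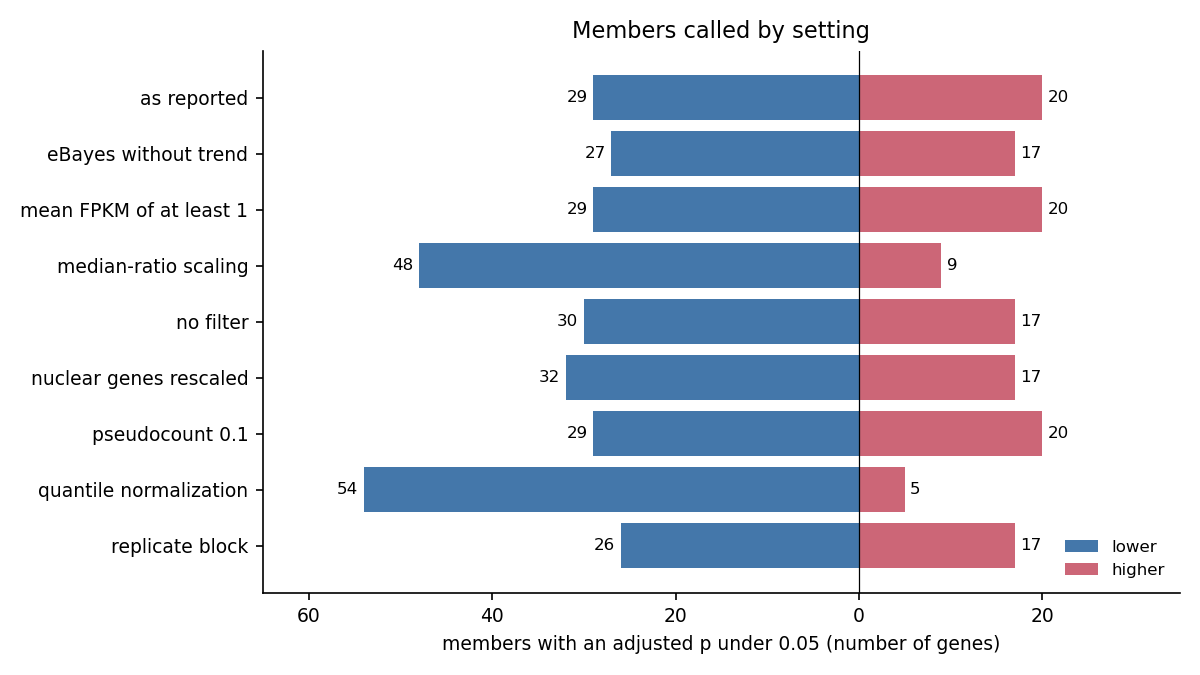
Number of members with an adjusted p under 0.05 (x axis) that were lower (bars to the left) or higher (bars to the right) in β-cateninΔ(ex3)/+ than in WT livers, under the analysis as reported and the alternatives that keep all 6 livers (y axis). The bars stay between 26 and 32 lower and 17 and 20 higher except under median-ratio scaling (48 and 9) and quantile normalization (54 and 5).

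**Figure D2:**
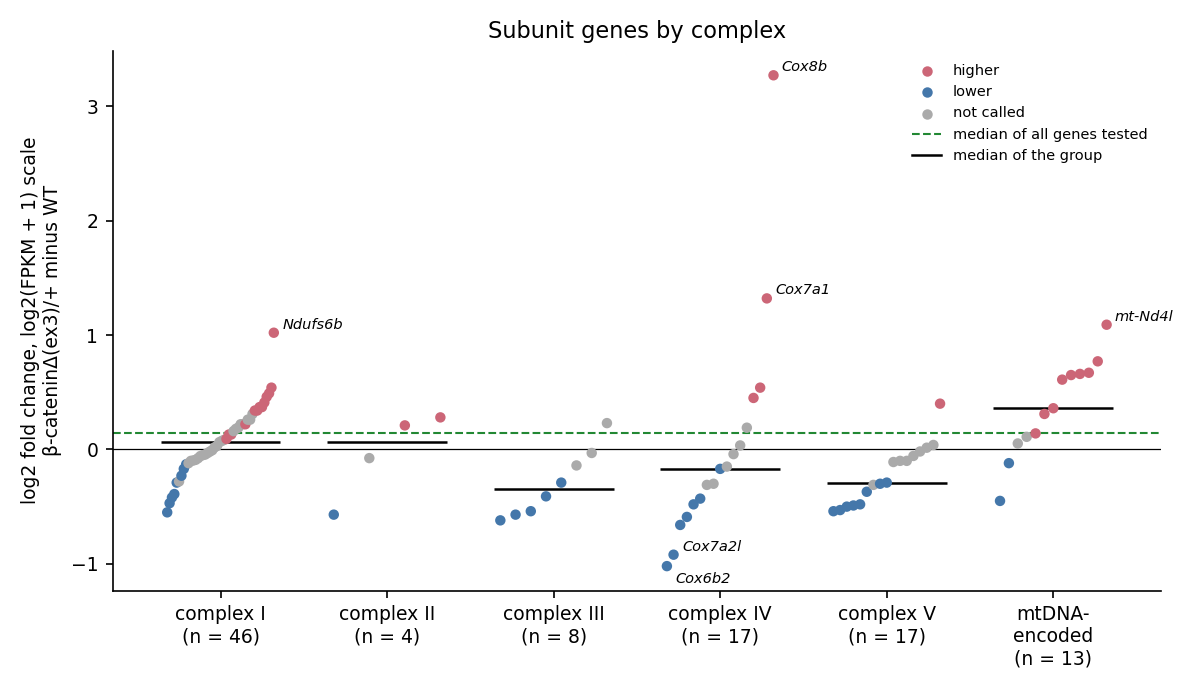
Log2 fold change of each gene tested (y axis, log2(FPKM + 1) scale, β-cateninΔ(ex3)/+ minus WT) by complex, with the mtDNA-encoded subunits at the right. Points are genes coloured by call, black lines are group medians and the dashed line is the median of all genes tested, 0.14. Complexes III, IV and V had medians of -0.35, -0.17 and -0.29, complexes I and II of 0.069 and 0.065, and the mtDNA-encoded subunits of 0.36. The position of Cox8b, listed at 0 in WT, depends on the pseudocount.

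Promoters of these genes are known for binding sites of NRF1, ETS-family factors such as GABPA, the estrogen-related receptors and YY1. Windows from 250 bases before to 50 after the RefSeq start (GRCm38.p6) were found for 70 of the 97 members. On either strand, the NRF1 consensus was in 25.7% of them, against 7.97% of 14254 promoters of all genes, and CCGGAAG (ETS) was in 25.7%, against 14.2%. AAGGTCA (estrogen-related receptors) was in 11.4% and 3.8%, and AAGATGGC (YY1) in 11.4% and 3.66%. GGGCGG (SP1) was in 44.3% of the members' promoters and 53.8% of all, and TATAAA, a core promoter box, in 11.4% and 9.46%. Over the promoters of genes tested alone, the shares of members and of all genes were 26.1% and 10.9% for NRF1, 26.1% and 19.3% for ETS, 11.6% and 3.33% for the estrogen-related receptors, 11.6% and 5.03% for YY1 and 43.5% and 64.2% for SP1. Matches of different motifs may overlap, and a match is a string of letters, not a measured binding site. The NRF1 string was in 5 of 16 promoters of higher members, 5 of 20 of lower members and 8 of 33 of those not called. The string was therefore present in members of every call.

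Complex I, which oxidizes NADH, had members moving both ways. Of 46 tested, 13 were higher (28.3%) and 8 lower (17.4%), beside 37.4% and 19.6% of all genes tested. The remaining 25 did not pass, and the median of the complex was 0.069. Its summed level was 2235, 2108 and 2192 FPKM in the WT and 2161, 2196 and 2194 FPKM in the β-cateninΔ(ex3)/+ livers, so the groups overlapped and their ratio was 1. With median-ratio scaling the count turned to 5 higher and 19 lower, and with quantile normalization to 2 and 22. The highest member by mean level was Ndufa2, of the NADH-oxidizing N module, with 207, 190 and 194 FPKM in WT and 207, 207 and 203 FPKM in β-cateninΔ(ex3)/+ livers (adjusted p = 0.209).

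Counts of the parts of complex I are given beside the 37.4% higher and 19.6% lower of all genes tested. In the Q module, which passes electrons to ubiquinone, 4 of 8 members were lower (50%) and 1 was higher (12.5%). Ndufa9, a subunit at the junction with the membrane arm, had 66.9, 70.1 and 67.7 FPKM in WT and 48.2, 43.3 and 47.0 FPKM in β-cateninΔ(ex3)/+ livers. All 3 mutant livers were below all WT livers (log2 fold change -0.55, standard error 0.050, limma adjusted p = 0.000221). Ndufa7 had 69.7, 64.8 and 73.6 FPKM in WT and 48.5, 50.0 and 50.9 FPKM in β-cateninΔ(ex3)/+ livers, also without overlap (log2 fold change -0.47, adjusted p = 0.000627). The core subunit Ndufs3 was lower by a log2 fold change of -0.29. Ndufs8, an iron-sulfur subunit of the same module, was the higher member at 0.34, although its groups overlapped (40.2 to 50.3 FPKM in WT and 49.7 to 59.0 FPKM in β-cateninΔ(ex3)/+ livers), and it lost its call in 8 of the alternatives.

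In the N module 2 of 8 members were higher (25%) and none lower. Ndufs6, a zinc-binding subunit, had 78.7, 75.6 and 73.4 FPKM in WT and 99.7, 96.9 and 92.9 FPKM in β-cateninΔ(ex3)/+ livers (log2 fold change 0.34, adjusted p = 0.00092). Ndufa12, which takes part in late assembly, had 12.9, 10.6 and 11.7 FPKM in WT and 17.1, 15.9 and 16.5 FPKM in β-cateninΔ(ex3)/+ livers (log2 fold change 0.46, adjusted p = 0.00265). The groups of both genes were apart, and both calls were lost with quantile normalization. The core subunits of the module, Ndufv1, Ndufv2 and Ndufs1, had log2 fold changes of -0.007, -0.045 and -0.05 and did not pass. In the membrane arm, which pumps protons, 6 of 20 members were higher (30%) and 3 lower (15%), beside 37.4% and 19.6% of all genes tested. Ndufb3 and Ndufb6 were each higher by 0.37, and Ndufb10 was lower by log2 fold change -0.39 (108, 101 and 88.5 FPKM in WT and 67.1, 78.8 and 79.6 FPKM in β-cateninΔ(ex3)/+ livers, adjusted p = 0.0153).

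Of the 8 Ndufaf assembly factors, which build complex I but are not part of it, 3 were higher and none lower, with a median of 0.27; the share higher, 37.5%, was near the 37.4% of all genes tested. Ndufaf6 had 6.44, 6.14 and 6.38 FPKM in WT and 10.1, 8.31 and 9.46 FPKM in β-cateninΔ(ex3)/+ livers (log2 fold change 0.49, adjusted p = 0.00217). Ndufaf5, which modifies Ndufs7, was at 1.26 to 1.99 FPKM in WT and rose to between 2.31 and 3.43 FPKM (log2 fold change 0.54, adjusted p = 0.024), and Ndufaf3 was at 5.48 to 6.26 FPKM and rose to between 7.13 and 9.56 FPKM (0.41, adjusted p = 0.0218). The WT and mutant livers did not overlap for any of these genes. The calls of Ndufaf5 and Ndufaf3 were lost with median-ratio scaling, with quantile normalization and without WT replicate 2 or 3, and that of Ndufaf5 also without β-cateninΔ(ex3)/+ replicate 2.

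Complex II, succinate dehydrogenase, joins the citrate cycle to the chain, and its 4 subunits did not move together. Sdha, the flavoprotein that oxidizes succinate, had 66.7, 71.0 and 67.6 FPKM in WT and 79.6, 76.8 and 80.8 FPKM in β-cateninΔ(ex3)/+ livers (log2 fold change 0.21, standard error 0.039, adjusted p = 0.00531). Sdhb, its iron-sulfur partner, had 56.4, 52.5 and 59.7 FPKM in WT and 64.3, 68.5 and 72.5 FPKM in β-cateninΔ(ex3)/+ livers (0.28, standard error 0.065, adjusted p = 0.0121). Both catalytic subunits were higher without overlap. The membrane anchor Sdhc had 49.9, 50.0 and 49.9 FPKM in WT and 47.2, 47.1 and 47.5 FPKM in β-cateninΔ(ex3)/+ livers (log2 fold change -0.076, adjusted p = 0.0697). Sdhd, the other anchor, had 168, 162 and 163 FPKM in WT and 112, 109 and 110 FPKM in β-cateninΔ(ex3)/+ livers, a fall of 32.7% in the mean that no liver departed from (log2 fold change -0.57, standard error 0.030, adjusted p = 2.22e-05).

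Sdha and Sdhb lost their calls with median-ratio scaling and quantile normalization, where Sdha reached -0.08 and Sdhb 0.01, while Sdhd kept its call throughout (-0.77 to -0.55). The ratio of Sdhd to Sdha within a liver is not changed by a single factor per library, although quantile normalization can change it. This ratio was 2.51, 2.28 and 2.42 in WT and 1.41, 1.41 and 1.37 in β-cateninΔ(ex3)/+ livers. The ratio of Sdhd to Sdhb was 2.97, 3.08 and 2.73 in WT and 1.74, 1.58 and 1.52 in β-cateninΔ(ex3)/+ livers. The anchor Sdhd was thus lower relative to either catalytic subunit in every mutant liver. In the windows from 250 bases before to 50 after the RefSeq start, Sdhb held the ETS and SP1 strings. Sdhd held the NRF1, ETS, estrogen-related receptor and SP1 strings there. Shorter stretches of the promoters of Sdhb, which was higher, and Sdhd, which was lower, are shown for the 2 directions within 1 complex. They end at the base before the most upstream exon of the gene in GENCODE M21 or RefSeq (sequence from RefSeq, GRCm38.p6; Sdhb chr4:140961053-140961202, plus strand, ending 68 bases before the RefSeq start; Sdhd chr9:50603850-50603909, minus strand, stopping at the exon of a neighbouring gene), and capitals mark SP1 strings in Sdhb and the ETS string in Sdhd, all read on the opposite strand.
Sdhb: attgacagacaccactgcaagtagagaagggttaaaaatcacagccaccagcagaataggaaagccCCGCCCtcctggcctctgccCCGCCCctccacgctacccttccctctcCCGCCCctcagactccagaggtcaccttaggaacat
Sdhd: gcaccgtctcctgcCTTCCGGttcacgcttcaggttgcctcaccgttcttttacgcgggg

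Complex III moves electrons from ubiquinol to cytochrome c. It had 5 of 8 members lower (62.5%) and none higher, beside 19.6% and 37.4% of all genes tested. Its cytochrome c1 subunit, Cyc1, is not named by the rule and is not in the counts, median, sums or ratios of complex III. Cyc1 had 64.7, 68.6 and 66.7 FPKM in WT and 90.8, 82.8 and 81.4 FPKM in β-cateninΔ(ex3)/+ livers. It was thus higher without overlap (log2 fold change 0.35, limma adjusted p = 0.00201), and lost its call with quantile normalization. The median of the complex was -0.35. Its summed level was 1204, 1094 and 1206 FPKM in WT and 946.5, 936.2 and 973.4 FPKM in β-cateninΔ(ex3)/+ livers. Uqcr10, a small subunit and the highest member of the complex, had 305, 273 and 306 FPKM in WT and 177, 196 and 202 FPKM in β-cateninΔ(ex3)/+ livers (log2 fold change -0.62, adjusted p = 0.000521). The core subunit Uqcrc2 had 72.6, 72.6 and 75.5 FPKM in WT and 51.4, 49.6 and 46.7 FPKM in β-cateninΔ(ex3)/+ livers (-0.57, adjusted p = 0.000128). Its partner Uqcrc1 had 54.7, 51.7 and 58.1 FPKM in WT and 44.1, 45.0 and 44.9 FPKM in β-cateninΔ(ex3)/+ livers (-0.29, adjusted p = 0.00339). Uqcrc1 and Uqcrc2 were thus lower in every mutant liver than in any WT liver.

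Uqcrb and the hinge protein gene Uqcrh had log2 fold changes of -0.41 and -0.54 (adjusted p = 0.000164 and 0.022), and among the fits without a liver Uqcrh lost its call without β-cateninΔ(ex3)/+ replicate 1 or 2. The Rieske iron-sulfur protein Uqcrfs1 (-0.14, adjusted p = 0.0688), Uqcrq (-0.031, adjusted p = 0.872) and Uqcr11 (0.23, adjusted p = 0.179) did not pass. WT replicate 2 was the lowest WT liver for Uqcr11 (116 against 166 and 154 FPKM) and Uqcrq (136 against 198 and 196 FPKM).

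**Figure D3:**
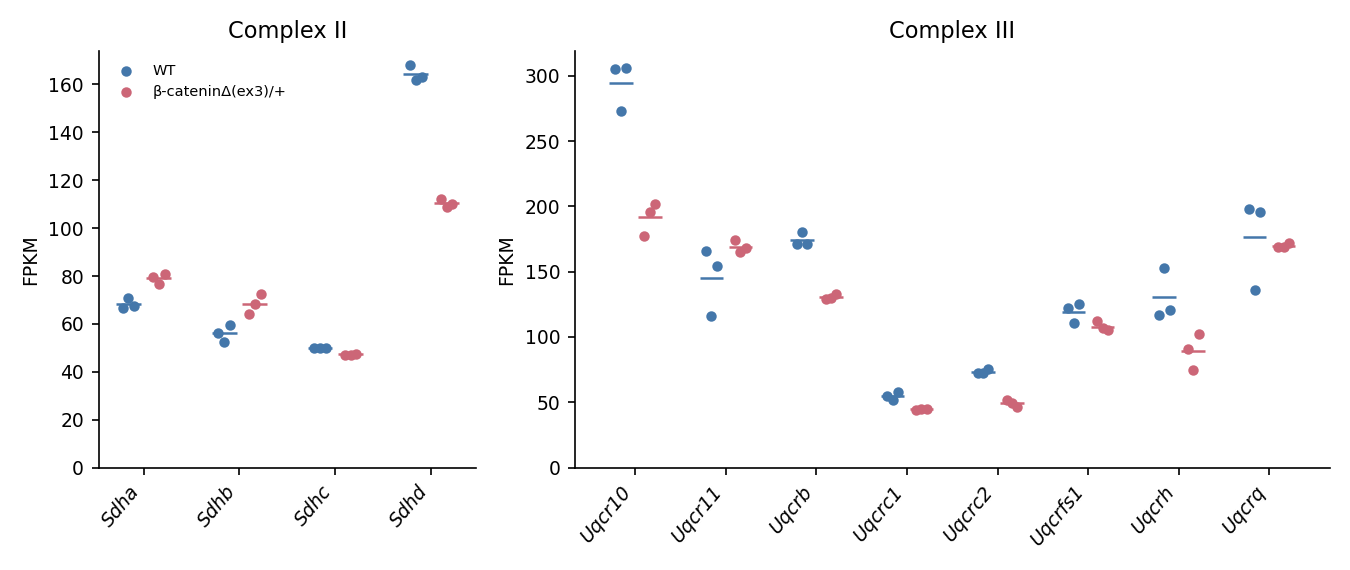
FPKM (y axis, from 0) of every member of complexes II and III in each liver. Points are livers, 3 WT and 3 β-cateninΔ(ex3)/+, and short lines are group means. Sdha and Sdhb lie higher and Sdhd lower in the mutant livers, and Uqcr10 lies at 273 to 306 FPKM in WT and at 177 to 202 FPKM in the mutant livers.

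Complex IV, cytochrome c oxidase, had 4 of 17 members tested higher (23.5%) and 7 lower (41.2%), beside 37.4% and 19.6% of all genes tested. Of the 4 higher, Cox8b passed the filter on low values through the mutant livers alone. The median of the complex was -0.17. Its summed level was 2275, 2178 and 2231 FPKM in WT and 1970, 1946 and 1937 FPKM in β-cateninΔ(ex3)/+ livers, without overlap. The 11 ubiquitous subunits gave 1 higher and 4 lower. Cox6a1, the highest of all 97 members, had 531, 412 and 534 FPKM in WT and 483, 468 and 474 FPKM in β-cateninΔ(ex3)/+ livers and did not pass (log2 fold change -0.041, adjusted p = 0.754). Cox5a, a subunit on the matrix side, was the higher subunit, with 59.4, 50.7 and 51.0 FPKM in WT and 75.7, 71.7 and 73.3 FPKM in β-cateninΔ(ex3)/+ livers (0.45, adjusted p = 0.00216). It lost its call with quantile normalization. Cox7c had 184, 195 and 197 FPKM in WT and 135, 127 and 119 FPKM in β-cateninΔ(ex3)/+ livers (-0.59, adjusted p = 0.000229). Of the other small subunits, Cox7b, Cox6b1 and Cox7a2 had log2 fold changes of -0.48, -0.43 and -0.17. Those of Cox4i1 (-0.3, adjusted p = 0.0759) and Ndufa4 (-0.31, adjusted p = 0.111) did not pass.

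Cox7a2l, known as a factor of supercomplexes of complexes III and IV, was the member tested nearest to a 2-fold fall without reaching it (log2(FPKM + 1) scale). Supercomplexes were not measured here. It had 76.4, 81.7 and 79.0 FPKM in WT and 33.6, 35.8 and 58.1 FPKM in β-cateninΔ(ex3)/+ livers. Every mutant liver was below every WT liver, with replicate 3 well above the other mutant livers (log2 fold change -0.92, standard error 0.20, adjusted p = 0.00967; -1.16 to -0.78 with a liver left out).

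The tissue isoforms of complex IV were low in all livers. They held 3 of the 4 members past the 2-fold threshold, of which Cox8b passed the filter through the mutant livers alone and is no support. Cox8b (ENSMUSG00000025488, chromosome 7, 140898945 to 140900446, minus strand), the isoform of heart, skeletal muscle and brown fat, was listed at 0 in all 3 WT livers and had 6.60, 11.2 and 8.72 FPKM in β-cateninΔ(ex3)/+ livers (it passed the filter through the mutant livers alone, so no test is given, and no fold is given against 0). Cox7a1 (chromosome 7, 30184144 to 30186078, plus strand), with the same tissue use, had 1.70, 2.39 and 1.07 FPKM in WT and 5.16, 6.12 and 5.72 FPKM in β-cateninΔ(ex3)/+ livers (log2 fold change 1.32, standard error 0.18, adjusted p = 0.00137). The livers of the 2 groups did not overlap for either gene. Cox6b2 (chromosome 7, 4751792 to 4753094, minus strand), known from testis, had 4.27, 3.42 and 3.74 FPKM in WT and 1.82, 1.59 and 0.814 FPKM in β-cateninΔ(ex3)/+ livers (-1.02, adjusted p = 0.00375), just inside the 2-fold threshold; without WT replicate 1 it was at -0.95 and without β-cateninΔ(ex3)/+ replicate 3 at -0.83. Ndufa4l2, induced by hypoxia in many cells, had 3.01, 2.67 and 2.71 FPKM in WT and 1.29, 1.55 and 1.37 FPKM in β-cateninΔ(ex3)/+ livers (-0.66, adjusted p = 0.000424). Its exons overlap Shmt2 on the other strand. Cox6b2 and Ndufa4l2 were thus lower in each mutant liver than in any WT liver.

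Cox4i2, Cox6a2, Cox8c and Cox7b2 were not tested. Cox4i2, an isoform of lung and of oxygen-sensing cells, had 0.586, 0.254 and 0.615 FPKM in WT and 0.120, 0 and 0.0648 FPKM in β-cateninΔ(ex3)/+ livers. Cox6a2, of heart and skeletal muscle, had 0.477 to 0.715 FPKM and 0.0711 to 0.457 FPKM. Cox8c and Cox7b2 were listed at 0 in all 6 livers.

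The share of an isoform in the sum of its isoforms does not depend on a single factor per library. The share of Cox7a1 in Cox7a1 and Cox7a2 was 1.74%, 2.29% and 1.09% in WT and 5.25%, 6.74% and 6.35% in β-cateninΔ(ex3)/+ livers. The share of Cox8b in Cox8a and Cox8b was listed at 0 in WT and was 2.02%, 3.5% and 2.71% in β-cateninΔ(ex3)/+ livers. The share of Cox6b2 went from 1.34 ± 0.243% to 0.672 ± 0.286%, and that of Ndufa4l2 from 1.64 ± 0.12% to 1.04 ± 0.223% (SD, n = 3). The groups did not overlap in the shares of Cox7a1, Cox6b2 and Ndufa4l2. Two-sided exact permutation tests gave p = 0.1 for each of them, the smallest that 3 livers against 3 can reach. No test is given for the share of Cox8b, which was listed at 0 in WT and entered through the mutant livers alone. The share of Cox6a2 was 0.132 ± 0.0407% and 0.0672 ± 0.0452% (exact permutation p = 0.3). The ubiquitous isoform made up most of the level in every pair.

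Markers of brown fat moved with Cox8b and Cox7a1. Their summed level was 0.0971 to 0.324 FPKM in WT and 14.8 to 16 FPKM in β-cateninΔ(ex3)/+ livers. In 4 of 5 the mutant livers were higher without overlap, as in 43% of all genes tested. Of these 4, Ucp1, Cidea and Adipoq passed the filter on low values through the mutant livers alone, and Dio2 was not tested. Ucp1, the uncoupling protein of brown fat, had 0, 0 and 0.05 FPKM in WT and 4.72, 4.82 and 5.03 FPKM in β-cateninΔ(ex3)/+ livers. Cidea had 0 to 0.237 and 4.40 to 5.03 FPKM, and the adipocyte hormone Adipoq had 0 to 0.0734 and 4.78 to 6.26 FPKM. Dio2 was listed at 0 in WT and stayed at or under 0.173 FPKM in β-cateninΔ(ex3)/+ livers, and Prdm16, a determinant of brown fat, had 0.047 to 0.11 FPKM over the 6 livers. Summed over 8 markers, striated muscle stood at 0.0179 to 0.286 FPKM in the mutant livers, and Myh4 was listed at 0 throughout. The part of brown fat in the values of Cox8b and Cox7a1 was not tested. For Cox6b2, the 4 testis germ cell markers summed to 0.0661 to 0.163 FPKM in WT and were listed at 0 in β-cateninΔ(ex3)/+ livers.

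**Figure D4:**
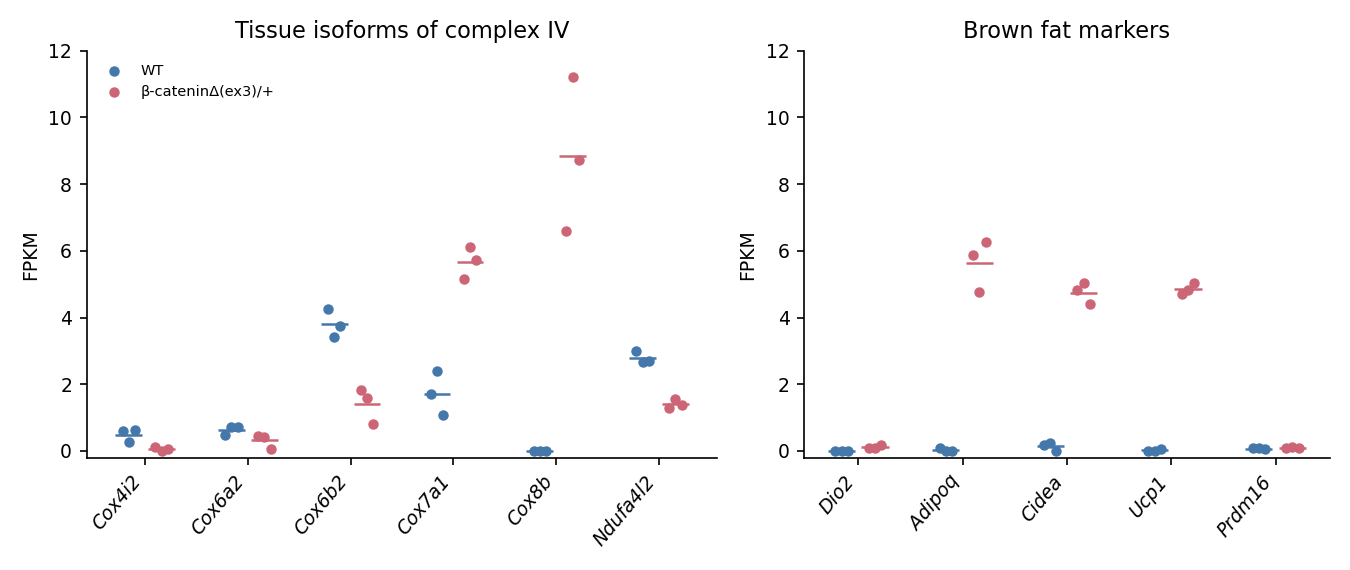
FPKM (y axis) of 6 tissue isoforms of complex IV (left) and of 5 brown fat markers (right) in each liver; points are livers, 3 WT and 3 β-cateninΔ(ex3)/+, and short lines are group means. Cox8b, Cox7a1, Adipoq, Cidea and Ucp1 stand between 4.40 and 11.2 FPKM in the mutant livers and at or under 2.39 FPKM in WT, while Dio2 and Prdm16 stay near 0.

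Complex V, the ATP synthase, had 1 of 17 members higher (5.88%) and 8 lower (47.1%), beside 37.4% and 19.6% of all genes tested. The median of the complex was -0.29. Its summed level was 1631, 1618 and 1640 FPKM in WT and 1464, 1392 and 1432 FPKM in β-cateninΔ(ex3)/+ livers, without overlap. The lower members lay mainly in the membrane part and the stalks, where 7 of 12 were lower and 1 was higher. In the catalytic F1 head 1 of 5 was lower: Atp5b, the catalytic β subunit, had 214, 213 and 215 FPKM in WT and 177, 174 and 171 FPKM in β-cateninΔ(ex3)/+ livers (log2 fold change -0.3, standard error 0.027, adjusted p = 0.000203). Its partner Atp5a1 had a mean of 199 FPKM in WT and 191 FPKM in β-cateninΔ(ex3)/+ livers (-0.057, adjusted p = 0.215).

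The c ring, which turns as protons pass, is made by 3 genes for the same mature protein. Atp5g3 had 189, 169 and 191 FPKM in WT and 130, 130 and 128 FPKM in β-cateninΔ(ex3)/+ livers (log2 fold change -0.5, adjusted p = 0.000419). Atp5g2 had 92.8, 94.3 and 89.1 FPKM in WT and 65.1, 61.8 and 61.6 FPKM in β-cateninΔ(ex3)/+ livers (-0.54, adjusted p = 8.44e-05). Both were lower in every mutant liver, while Atp5g1 had 34.5, 30.2 and 34.7 FPKM in WT and 36.1, 31.4 and 32.9 FPKM in β-cateninΔ(ex3)/+ livers (0.015, adjusted p = 0.883). The share of Atp5g1 in the 3 genes went from 10.7 ± 0.393% to 14.8 ± 0.762% (SD, n = 3), without overlap (exact permutation p = 0.1). Those of Atp5g2 and Atp5g3 went from 29.9 to 27.9% and from 59.3 to 57.3% (exact permutation p = 0.1 and 0.2). Atp5g3 remained the main source of c ring mRNA in all 6 livers.

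In the stalk, Atp5o (also called OSCP, which ties the head to the stator) had 86.6, 111 and 96.0 FPKM in WT and 73.1, 62.2 and 72.4 FPKM in β-cateninΔ(ex3)/+ livers (log2 fold change -0.49, adjusted p = 0.00973). Atp5h, also of the stator, had 106, 111 and 111 FPKM in WT and 90.6, 92.0 and 84.3 FPKM in β-cateninΔ(ex3)/+ livers (-0.29, adjusted p = 0.00221). All mutant livers were below the WT livers for both genes. Of the small membrane subunits, Atp5mpl (-0.53), Atp5j2 (-0.48) and Atp5l (-0.37) were lower, and Atp5j2 lost its call in 5 of the 6 fits without a liver. Atp5k, the e subunit that with Atp5l helps the enzyme form dimers, went the other way, with 119, 130 and 125 FPKM in WT and 164, 158 and 172 FPKM in β-cateninΔ(ex3)/+ livers (0.40, adjusted p = 0.000711). The ratio of Atp5k to Atp5l within a liver was 5.73, 5.76 and 6.35 in WT and 10.4, 9.56 and 10.9 in β-cateninΔ(ex3)/+ livers, so these dimer subunits moved apart in each mutant liver. The promoters of Atp5g3 and Atp5h, a c ring and a stator gene that were both lower, are shown as examples of members that moved together (RefSeq, GRCm38.p6; Atp5g3 chr2:73911327-73911476 and Atp5h chr11:115419963-115420112, which ends 43 bases before the RefSeq start, both on the minus strand). Capitals mark the estrogen-related receptor string in Atp5g3, read on the opposite strand, and the NRF1 string in Atp5h. In the wider windows used for the shares, Atp5g3 also held the NRF1 string and Atp5h the ETS string.
Atp5g3: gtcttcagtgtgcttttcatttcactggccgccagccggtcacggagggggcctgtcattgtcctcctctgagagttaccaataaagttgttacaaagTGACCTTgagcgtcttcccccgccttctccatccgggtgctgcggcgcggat
Atp5h: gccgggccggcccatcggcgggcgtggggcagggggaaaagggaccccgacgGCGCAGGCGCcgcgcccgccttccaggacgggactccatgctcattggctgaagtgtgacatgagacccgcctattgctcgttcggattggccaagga

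Of the members, 4 are processed pseudogenes in GENCODE M21 although their symbols do not say so. Ndufs6b (chromosome 7, 81161397 to 81161744) passed the 2-fold threshold, with 1.47, 0.846 and 2.60 FPKM in WT and 4.49, 3.64 and 4.41 FPKM in β-cateninΔ(ex3)/+ livers (log2 fold change 1.02, adjusted p = 0.0128). Its groups did not overlap, and 5.11% of its 75-base stretches occur in another gene. Cox6c2, with 45.2% shared with another gene, was higher by 0.54 (adjusted p = 0.0352), and Ndufb4c, all of whose stretches occur in Ndufb4, was lower by log2 fold change -0.42 (adjusted p = 0.000519). Their values are uncertain, since reads of the parent genes could be counted there. Among the protein-coding members, Atp5g2 shared 35.8% and Cox7c 19.6% of their stretches with other genes. Ndufa11b was listed at 0 in 5 livers and had 0.136 FPKM in β-cateninΔ(ex3)/+ replicate 3.

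The subunits encoded in mtDNA gave other counts than the nuclear members. Of 13, 9 were higher (69.2%) and 2 were lower (15.4%), with a median of 0.36, beside 37.4%, 19.6% and 0.14 for all genes tested. With median-ratio scaling 6 were higher and 3 lower, and with quantile normalization 7 and 2. The highest, mt-Co1, the catalytic core of complex IV, had 10600, 10800 and 10400 FPKM in WT and 16500, 17300 and 16900 FPKM in β-cateninΔ(ex3)/+ livers (log2 fold change 0.67, adjusted p = 6.64e-06). The single subunit of complex III made there, mt-Cytb, was higher by 0.61 (6790 to 6990 and 10100 to 10700 FPKM). At 2-fold 1 was higher: mt-Nd4l had 1220, 1050 and 1030 FPKM in WT and 2210, 2430 and 2380 FPKM in β-cateninΔ(ex3)/+ livers (1.09, adjusted p = 6.46e-05). The groups did not overlap for these 3 genes. The lower genes were mt-Nd3 (-0.45) and mt-Nd6 (-0.12), which is on the other strand from the rest. The genes mt-Nd4l and mt-Nd4 overlap, as do mt-Atp8 and mt-Atp6, and whether counting used the strand is not given in the sources used here.

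The 13 genes summed to 62690, 64250 and 58780 FPKM in WT and 78550, 83070 and 80830 FPKM in β-cateninΔ(ex3)/+ livers, and the 97 nuclear members to 7686, 7333 and 7609 FPKM and 6845, 6772 and 6848 FPKM. The first sum was 1.31 times and the second 0.904 times its WT mean. A single factor per library does not change the ratio of mtDNA-encoded to nuclear-encoded mRNA within a liver. This ratio was 8.16, 8.76 and 7.73 in WT and 11.5, 12.3 and 11.8 in β-cateninΔ(ex3)/+ livers. By complex, its mean went from 5.89 ± 0.437 to 11 ± 0.341 in complex III, from 11.1 ± 0.91 to 17 ± 0.411 in complex IV and from 3.52 ± 0.303 to 6.04 ± 0.57 in complex V (SD, n = 3). In complex I it went from 11.3 ± 0.524 to 13 ± 0.264 (SD, n = 3). Every mutant liver was above every WT liver in each of these ratios. Libraries were made from oligo(dT)-selected RNA, and mitochondrial transcripts carry short poly(A) tails; the part of this selection was not tested.

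**Figure D5:**
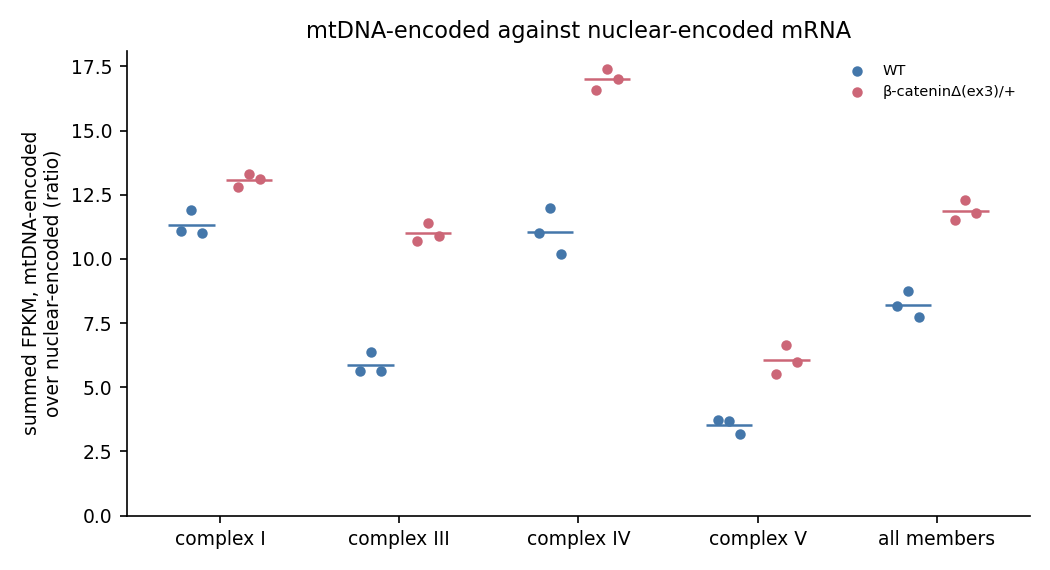
Ratio of the summed FPKM of mtDNA-encoded subunits to that of the nuclear-encoded members (y axis, from 0) in each liver, for the complexes with subunits of both origins and for all members; points are livers, 3 WT and 3 β-cateninΔ(ex3)/+, and short lines are group means. The ratio over all members is 7.73 to 8.76 in WT and 11.5 to 12.3 in the mutant livers.

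Other genes of the pathway were read from lists. Of 8 electron carriers and quinone reductases 3 were higher (37.5%) and 4 lower (50%), beside 37.4% and 19.6% of all genes tested. Etfa, which carries electrons from fatty acid oxidation, had 211, 210 and 208 FPKM in WT and 109, 104 and 99.7 FPKM in β-cateninΔ(ex3)/+ livers (log2 fold change -1.0, adjusted p = 6.82e-06). Cytochrome c, Cycs, had 25.1, 25.1 and 23.8 FPKM in WT and 34.4, 35.5 and 37.3 FPKM in β-cateninΔ(ex3)/+ livers (0.52, adjusted p = 0.000216). The groups of both were apart. Of 42 assembly factors not named by the rule 16 were higher (38.1%) and 6 lower (14.3%), with a median of 0.15, near the 37.4%, 19.6% and 0.14 of all genes tested. Among those that passed, the ends of the list were factors of complex IV, the copper chaperone Sco2 (8.54 to 9.97 FPKM in WT and 20.1 to 33.5 FPKM in β-cateninΔ(ex3)/+ livers, 1.29) and the heme A synthase Cox15 (5.81 to 6.06 and 3.67 to 4.26 FPKM, -0.47).

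Of 13 coenzyme Q genes 5 were higher (38.5%) and 3 lower (23.1%), led by the related kinases Coq8a (16.1 to 38 and 50.8 to 126 FPKM, 1.66, adjusted p = 0.0239) and Coq8b (5.88 to 7.33 and 2.86 to 3.07 FPKM, -0.97, adjusted p = 0.00022). Replicate 2 was the lowest liver of each group for Coq8a. The call of Coq8a was lost without WT replicate 2 and without β-cateninΔ(ex3)/+ replicate 1 or 3. Of 14 citrate cycle enzymes 5 were higher (35.7%) and 5 lower (35.7%). Of all genes tested, 37.4% were higher and 19.6% lower. Citrate synthase, Cs, had 12.9, 13.3 and 12.1 FPKM in WT and 28.7, 28.3 and 28.2 FPKM in β-cateninΔ(ex3)/+ livers (1.09, adjusted p = 8.52e-06), and Suclg1, of succinyl-CoA ligase, had 66.4, 67.2 and 66.9 FPKM and 26.6, 24.6 and 24.1 FPKM (-1.38, adjusted p = 3.02e-06). Neither gene's groups overlapped.

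Of 16 regulators of mitochondrial biogenesis 3 were higher (18.8%) and 2 lower (12.5%), beside 37.4% and 19.6% of all genes tested. The mtDNA helicase Twnk was higher by 0.51 and the transcription factor Tfb2m was lower by log2 fold change -0.32. The coactivator Ppargc1a (-0.099, adjusted p = 0.246), Tfam (-0.1, adjusted p = 0.252) and Nrf1 (0.099, adjusted p = 0.655) did not pass, and Ppargc1a and Nrf1 were near the minimum level tested. Of 16 genes of mitochondrial import and structure 4 were higher (25%) and 6 lower (37.5%), with Timm23 at 0.78 and Phb2 at -0.51. Of 78 mitochondrial ribosomal protein genes 18 were higher (23.1%) and 20 lower (25.6%), with Mrps18a at 1.28 and Mrpl9 at -0.82. Among 5 adenine nucleotide, phosphate and uncoupling carriers, Slc25a4, the ADP/ATP carrier of heart and muscle, had 41.4, 39.8 and 39.9 FPKM in WT and 4.62, 5.86 and 4.69 FPKM in β-cateninΔ(ex3)/+ livers (-2.78, adjusted p = 2.28e-06), while its ubiquitous relative Slc25a5 was higher by 0.63 (119 to 122 and 182 to 192 FPKM). The ADP/ATP carriers thus moved in opposite directions in all mutant livers.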

How the data were processed

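The deposited table holds the authors' FPKM of each gene in each liver. Per the labels, RNA was selected with oligo(dT) and sequenced as paired reads on a NovaSeq instrument after a dUTP second-strand protocol; the submitters' processing notes name cutadapt 1.9, HISAT2 2.0.4, StringTie 1.3.4d, DESeq2 and edgeR. The genome build is not given in the sources used here; 83 of the 97 members have the start and end of GENCODE M21, whose identifiers include all 97, and 33 overlap another gene there. FPKM are not counts, so DESeq2 was not run; limma 3.58.1 in R 4.3.3 (lmFit, and eBayes with trend) was run on log2(FPKM + 1), 3 livers against 3, without covariates. Thresholds were an adjusted p-value under 0.05 and, where stated, the study's 2-fold change. Shares were compared by exact permutation tests, except that of Cox8b. The members, the lists and the rule for named genes were chosen with earlier results of these data known. That rule took members past both thresholds, the 10 largest changes, the highest member of each complex, the isoforms, the Sdh genes, members nearest to 2-fold, assembly factors that passed and the extremes of each list; subunits named beside these to fill in a complex were chosen after their values were seen, as were the ratios within a liver. The values of 1 member are not reported here.

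Steps in low values gave relative depths of 0.99 to 1 in WT and 0.685 to 0.79 in β-cateninΔ(ex3)/+ livers (WT replicate 1 set to 1); no counting intervals can be given. Among 71 members with at least 20 FPKM the median coefficient of variation was 5.82% in WT and 4.44% in β-cateninΔ(ex3)/+ livers. The limma p-values set the difference between groups against the spread between the 3 livers of each group, moderated by a trend over all genes. Tested on simulated data of 13243 genes with 200 changed, the fit recovered 64.6% of 1.5-fold, 87% of 2-fold and 100% of 4-fold changes. The simulated libraries had equal depth, and all genes shared 1 dispersion and 1 length. In the data 57% of genes passed and depths differed between groups, so these rates are a check of the code and not the power of this comparison. Promoter sequences are from RefSeq (GRCm38.p6). The alternatives were median-ratio scaling, quantile normalization, a pseudocount of 0.1, no filter, a filter at a mean FPKM of 1, nuclear genes rescaled to 1000000, eBayes without trend, a replicate block and each liver left out. Other steps used Python 3.11.15 with pandas 2.3.3, numpy 2.4.6 and matplotlib 3.10.9.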

Additional observations from a re-analysis of the deposited data

How the results depend on the processing

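Of 1288 values of members under the 14 alternatives, 1133 kept their side of the threshold, among them 43 values of 23 members that were called in neither fit and changed sign; 86 lost and 55 gained a call, and 14 that were called in at least 1 of the fits turned. Median-ratio scaling gave 9 members higher and 48 lower at any fold, 2 lower at 2-fold and a median of -0.24; quantile normalization gave 5, 54, 2 and -0.302. With nuclear genes rescaled the median was -0.071. The number of mtDNA-encoded subunits lower was 1 with eBayes without trend and 1 with no filter. Leaving out each liver gave 14 to 18 members higher, 25 to 34 lower, 0 to 1 lower at 2-fold (0 without WT replicate 1; without β-cateninΔ(ex3)/+ replicate 3 it was Cox7a2l, at -1.16, with Cox6b2 at -0.83) and medians of -0.089 to -0.04. Under median-ratio scaling log2 fold changes turned to -0.06 for Ndufa10, -0.06 for Ndufa13, -0.13 for Ndufa2, -0.10 for Ndufa8, -0.16 for Ndufc2, -0.03 for Fh1, -0.04 for Vdac1, -0.06 for mt-Nd1 and -0.14 for mt-Nd2. Under quantile normalization they turned to -0.19 for Atp5c1, -0.26 for Atp5g1, -0.16 for Ndufa10, -0.12 for Ndufa13, -0.10 for Ndufa8, -0.05 for Ndufb5, -0.24 for Ndufc2, -0.20 for Ndufv3, -0.08 for Sdha, -0.13 for Fh1, -0.06 for Pet100, -0.04 for Slirp, -0.02 for Uqcc3, -0.12 for Vdac1 and -0.01 for mt-Nd1. Tmem70 ranged from -0.20 (without WT replicate 2) to 0.54 (without WT replicate 3). Both scalings shift all genes by construction; beyond that the cause was not tested.

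Same-numbered livers did not deviate together (correlations of 0.0268, 0.0213 and -0.0054), so the numbers were not taken as pairs; with the replicate block 17 members were higher and 26 lower, and Uqcrh and Ndufaf5 were among the 8 that lost their call. FPKM keep no counts, so low members such as Cox4i2 and Cox6a2 carry an unknown counting error.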
